A study of Homo sapiens with 20 samples.

Results

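Cells of the human glioblastoma line U-87MG were treated for 24 h with indole-3-pyruvic acid (I3P) at 40 µM or with the solvent DMSO, and their RNA was measured on Affymetrix arrays. The comparison is between 10 of the series' 20 arrays, 5 with I3P and 5 with DMSO, which the labels call biological replicates 1 to 5 of each group. The remaining arrays hold hydroxyphenylpyruvic acid (HPP) and phenylpyruvic acid (PP), 5 arrays each at the same dose and time. They also entered the model from which the calls below come. DMSO made up at most 0.2% of the medium. Genes were followed through the 11316 of 12770 probe sets that carry a single gene symbol, and all 11316 were tested. Values are log2 units of the robust multi-array average (RMA), on which a difference of 1 is a 2-fold change.

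I3P is the keto acid of tryptophan. It carries an indole ring, and cells can form it from tryptophan by removing the amino group. The aryl hydrocarbon receptor (AHR) is a transcription factor that is held in the cytoplasm with chaperones until a small molecule binds it. It then pairs with ARNT in the nucleus and binds DNA at a short core, GCGTG, near genes such as CYP1A1 and TIPARP. Beyond enzymes that break down foreign compounds, AHR is known to act on inflammatory, matrix and growth factor genes in many cell types.

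Marker genes were read as a check of the cell line's label. The mesenchymal genes VIM, CD44 and FN1 had means of 13.28, 12.74 and 12.78 with I3P, against 13.37, 12.69 and 12.70 with DMSO. GFAP, the astrocyte filament, averaged 8.50 with I3P and 8.51 with DMSO, and NES, the neural stem cell filament nestin, 8.31 with I3P and 8.48 with DMSO. The 5 blood and microglial markers averaged 7.96 (AIF1), 8.15 (PTPRC), 8.92 (ITGAM), 9.05 (ITGB2) and 9.15 (CSF1R) with I3P, and the sum of their means was 43.23 with I3P and 43.00 with DMSO. Signals of different probe sets are not comparable, so these levels show only that the groups were close. None of the 8 glial and mesenchymal markers or the 5 blood and microglial markers passed limma's test, and none reached an unadjusted p below 0.05. The 3 endothelial markers KDR, TEK and VWF all lay above DMSO, 1 of them with an unadjusted p below 0.05, and none passed. In bulk RNA such as this, fewer cells of a kind and less RNA per cell cannot be told apart.

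Arrays of the same replicate number were taken as pairs, because same-numbered arrays of different groups deviated together. With the number as a block in limma's model, 55 of 11316 probe sets rose with I3P (0.486%) and 13 fell (0.115%) at an adjusted p below 0.05. Without the block 9 rose (0.0795%) and 0 fell (0%), with 305 above and 205 below DMSO at an unadjusted p below 0.05. The block took up differences between replicate numbers, and the median standard error of a difference was 0.079 with it and 0.11 without it. The 9 genes that also rose without the block were TIPARP, SECTM1, STC2, CYP1B1, PRDM1, LOXL3, LACC1, SNX9 and CARD10. Fitted to the 10 arrays of the 2 groups alone, 18 rose and 2 fell. Without the DMSO array of replicate 5 the rises numbered 34, without replicate numbers 2, 4 or 5 they numbered 28 to 31, and the falls ranged from 5 to 19 over 25 fits that left out 1 array or 1 number. "Rose" and "fell" refer from here on to the fit with the block, and both adjusted p-values are given for the main genes.

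Few genes passed, and most of those that did rose. With the block, 1245 probe sets had an unadjusted p below 0.05, against 565.8 expected by chance if none differed. Of these, 637 lay above and 608 below DMSO, so this wider set was nearly even in that fit. Without the block 510 probe sets had an unadjusted p below 0.05, fewer than the 565.8, with 305 above and 205 below DMSO. The 55 rises lay between 0.24 and 1.56 on the log2 scale, with a median of 0.44, and the 13 falls between -0.93 and -0.26, with a median of -0.40. Over all probe sets the median difference was -0.0002, with 5648 means above DMSO (49.9%) and 5668 below (50.1%). A rise of 2-fold or more was reached by 4 genes. Groups that did not overlap on any array were seen for 22 of the 55 and 4 of the 13, against 52 probe sets fully above DMSO (0.46%) and 42 fully below (0.371%) in the whole table. Sorted by function after the calls were known, the 68 genes comprised 12 of cell signalling, 12 of metabolism, 11 of secreted signals and 9 of the matrix and its proteolysis. Transcription and its regulators held 9 more, membrane transport 7, trafficking and protein handling 7, and the keratin-associated gene KRTAP1-5 (0.56) stood alone. Leaving out arrays or numbers never removed the call for 24 of the rises and 3 of the falls (RGS4, ID3 and FJX1), whereas 18 of the 68 kept it in fewer than 13 of the 25 fits. The least stable were PLAU, SH3BP4 and PNLIPRP3 (4 of 25), GDF5 and SQOR (5), RUNX2 (7), BEX1 and ATG4C (8), and IL1RN, CHODL, NPEPPS and ABCC9 (9). MECOM (10), E2F7 and KRTAP1-5 (11), and SLC17A5, ADCY6 and ID1 (12) followed. Some rises were those of dim probe sets. In percentiles of mean level over all tested probe sets, SLC9A9 was at 4.1, SLC17A5 at 7.5, NYAP1 at 7.6 and TTC39B at 8.2. CHODL was at 8.9, ST8SIA5 at 11.1 and TBC1D8 at 12.2, while the median of the raised genes was 56.0.

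**Figure D1:**
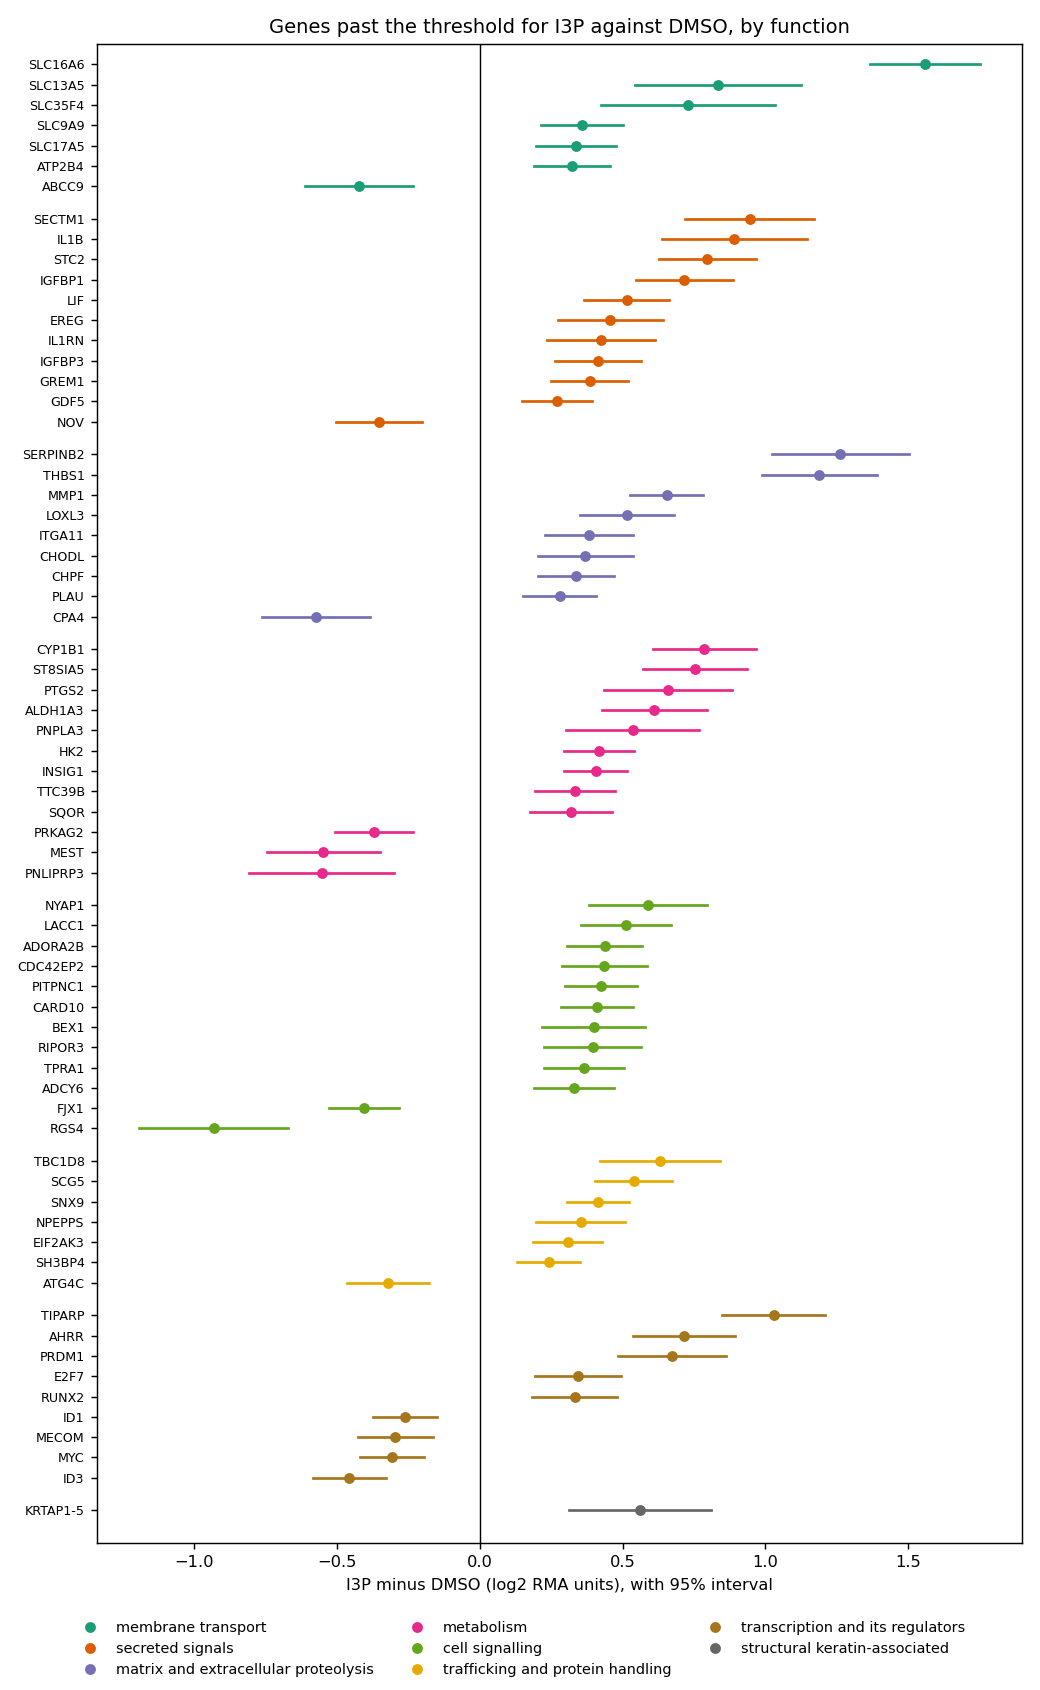
Difference between I3P and DMSO in log2 RMA units for the 68 genes past the threshold, sorted by function. Points are the fitted differences with the replicate block and lines their 95% intervals. Rises reach 1.56 (SLC16A6) and the largest fall is -0.93 (RGS4).

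AHR itself did not pass, and 6 of 12 measured AHR target genes rose, against 0.486% of all probe sets. The list was chosen with earlier results of these data known, so this share is a description and not independent support. AHR was at 11.48, 11.32, 11.10, 11.33 and 11.40 on the I3P arrays, against 11.46, 11.55, 11.14, 11.37 and 11.50 on the DMSO arrays in the order of replicates 1 to 5, which is kept below (log2 difference -0.08, SE 0.047, adjusted p = 0.587 with the block and 0.999 without it). Its 2 groups overlapped on almost their whole range. TIPARP, an ADP-ribosyltransferase that restrains AHR, was at 11.08, 11.04, 11.26, 11.28 and 10.64 on the I3P arrays, against 10.10, 9.87, 10.29, 10.003 and 9.89 on the DMSO arrays (log2 difference 1.03, SE 0.085, adjusted p = 4.94e-06 with the block and 0.0235 without it). SERPINB2, an inhibitor of plasminogen activators, was at 11.56, 11.22, 10.69, 11.48 and 10.30 on the I3P arrays, against 10.46, 9.89, 9.78, 10.12 and 8.68 on the DMSO arrays (log2 difference 1.26, SE 0.11, adjusted p = 1.32e-05 with the block and 0.713 without it). TIPARP's groups were fully apart, while SERPINB2 spread over more than 1 unit within each group and overlapped between them. STC2, a secreted glycoprotein that blocks the pappalysins, was at 11.17, 11.35, 10.54, 11.21 and 11.33 on the I3P arrays, against 10.45, 10.37, 9.99, 10.35 and 10.45 on the DMSO arrays (log2 difference 0.80, SE 0.081, adjusted p = 4.6e-05 with the block and 0.0361 without it). CYP1B1, a cytochrome P450 of foreign compounds and oestrogens, was at 11.40, 11.48, 11.44, 11.31 and 11.39 on the I3P arrays, against 10.73, 10.36, 10.97, 10.62 and 10.42 on the DMSO arrays (log2 difference 0.79, SE 0.085, adjusted p = 0.000101 with the block and 0.034 without it). All I3P arrays exceeded all DMSO arrays for STC2 and CYP1B1.

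The other 2 AHR target genes that rose were the repressor AHRR and the growth factor EREG. AHRR, which competes with AHR for ARNT, was at 9.31, 9.27, 9.55, 9.24 and 9.22 on the I3P arrays, against 8.55, 8.46, 8.85, 8.56 and 8.59 on the DMSO arrays (log2 difference 0.71, SE 0.084, adjusted p = 0.000199 with the block and 0.164 without it). EREG, a ligand of the EGF receptor, was at 12.34, 12.38, 12.31, 12.47 and 11.90 on the I3P arrays, against 12.01, 11.75, 11.995, 11.83 and 11.52 on the DMSO arrays (log2 difference 0.46, SE 0.087, adjusted p = 0.0187 with the block and 0.961 without it). AHRR's groups were apart, and EREG's overlapped through the I3P array of replicate 5. EREG kept its call in 14 of 25 fits that left out 1 array or 1 replicate number. The members that did not pass were ALDH3A1 (0.24), ABCG2 (0.23), NFE2L2 (0.15), NQO1 (0.12), SLC7A5 (0.03) and CYP1A2 (-0.08). CYP1A1 and UGT1A6, also on the list, had no probe set among those tested. Of 14 measured parts of the AHR complex and its cofactors none passed, and 3 above and 1 below DMSO had an unadjusted p below 0.05, as did 637 above (5.63%) and 608 below (5.37%) of all probe sets.

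Transport across membranes held the largest rise of the comparison. SLC16A6, a monocarboxylate carrier known to export ketone bodies, was at 11.52, 11.52, 9.96, 11.74 and 10.63 on the I3P arrays, against 10.24, 9.86, 8.31, 10.08 and 9.08 on the DMSO arrays (log2 difference 1.56, SE 0.091, adjusted p = 7.14e-08 with the block and 0.598 without it). Its fold change was 2.95. Replicates 3 and 5 were low in both groups. The groups overlapped only through the I3P array of replicate 3, and each pair differed by 1.28 to 1.66. SLC13A5, the plasma membrane citrate transporter, was at 9.33, 9.50, 8.64, 9.21 and 9.49 on the I3P arrays, against 8.11, 8.92, 7.97, 8.77 and 8.23 on the DMSO arrays (log2 difference 0.83, SE 0.14, adjusted p = 0.00489 with the block and 0.287 without it). Only the I3P array of replicate 3 lay within the range of the DMSO arrays, and the call was lost without replicate number 5 (adjusted p = 0.0674).

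SLC35F4, a solute carrier whose cargo is little known, was at 9.08, 9.12, 9.41, 9.24 and 9.36 on the I3P arrays, against 8.33, 8.31, 9.32, 8.27 and 8.34 on the DMSO arrays (log2 difference 0.73, SE 0.14, adjusted p = 0.0249 with the block and 0.586 without it). Replicate 3 had a high DMSO value and hardly any difference, and without number 3 the difference was 0.89. The call held in 14 of 25 fits with an array or number left out. Smaller rises were found for the endosomal proton exchanger SLC9A9 (0.36), the lysosomal sialic acid exporter SLC17A5 (0.34) and the plasma membrane calcium pump ATP2B4 (0.32). ABCC9, the sulfonylurea receptor subunit of a potassium channel, fell, at 8.62, 8.69, 8.46, 8.47 and 8.28 on the I3P arrays, against 9.24, 8.91, 8.55, 9.22 and 8.71 on the DMSO arrays (log2 difference -0.42, SE 0.089, adjusted p = 0.0386 with the block and 0.854 without it). Its groups overlapped through the DMSO array of replicate 3, and it kept its call in 9 of 25 fits.

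No other solute carrier passed. Among 234 measured solute carriers the 5 described above rose and none fell, 2.14% against 0.486% of all probe sets. The list's median was 0.04 against -0.0002. Among 10 carriers of carboxylates and their partners only SLC16A6 and SLC13A5 passed, and the next were SLC16A3 (0.19) and SLC16A4 (0.11). SLC16A1, the main lactate and pyruvate carrier, differed by 0.00 (adjusted p = 1).

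Secreted signals formed a group of 10 rises and 1 fall. SECTM1, a secreted and membrane protein that binds CD7 on lymphocytes, was at 10.24, 10.13, 10.48, 10.04 and 9.73 on the I3P arrays, against 9.51, 9.19, 9.30, 8.93 and 8.98 on the DMSO arrays (log2 difference 0.94, SE 0.11, adjusted p = 0.000154 with the block and 0.0361 without it). IL1B, the inflammatory cytokine interleukin 1 beta, was at 12.63, 12.37, 11.05, 12.30 and 11.85 on the I3P arrays, against 11.86, 11.57, 10.48, 11.35 and 10.48 on the DMSO arrays (log2 difference 0.89, SE 0.12, adjusted p = 0.000797 with the block and 0.999 without it). SECTM1 separated the groups fully, and IL1B did so only within pairs, by 0.56 to 1.37. IGFBP1, a carrier of insulin-like growth factors, was at 10.10, 10.27, 8.39, 9.80 and 10.37 on the I3P arrays, against 9.32, 9.52, 7.97, 8.85 and 9.69 on the DMSO arrays (log2 difference 0.72, SE 0.08, adjusted p = 0.000145 with the block and 0.999 without it). Replicate 3 was the lowest in both groups for IGFBP1.

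The remaining rises among secreted signals were smaller. They comprised the cytokine LIF (0.52), the interleukin 1 receptor antagonist IL1RN (0.42), the growth factor carrier IGFBP3 (0.41), the antagonist of bone morphogenetic proteins GREM1 (0.38) and the ligand GDF5 of that family (0.27). NOV, a matricellular signalling protein kept under the array's symbol, fell, at 9.43, 9.42, 8.99, 9.55 and 9.35 on the I3P arrays, against 9.77, 9.96, 9.33, 9.77 and 9.66 on the DMSO arrays (log2 difference -0.35, SE 0.071, adjusted p = 0.0295 with the block and 0.999 without it). The NOV groups overlapped only through the DMSO array of replicate 3.

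The insulin-like growth factor axis lay mostly above DMSO. Of 13 measured members 12 lay above DMSO, 3 rose (IGFBP1, IGFBP3 and STC2), and the median was 0.13, while 0.486% of all probe sets rose and 49.9% lay above DMSO. IGFBP3 lost its call without number 1 (adjusted p = 0.0518) or 2 (adjusted p = 0.0636). IGFBP4 stood at 0.41 without passing (adjusted p = 0.0529), and the only member below DMSO was IGFBP7 (-0.11). Of 13 cytokines and chemokines 11 lay above DMSO and 2 rose, LIF and IL1B, against the same 0.486% of all probe sets, with a list median of 0.14. CXCL8 (0.45, adjusted p = 0.246) and CCL2 (0.41, adjusted p = 0.0691) did not pass, and IL6 was at 0.10. In the NF-kB pathway 16 of 19 members lay above DMSO and none passed limma's test (4 above DMSO at an unadjusted p below 0.05), with a median of 0.10. Of 16 prostaglandin genes PTGS2 alone rose, and PTGES, the enzyme that makes prostaglandin E2, stood at -0.26 (adjusted p = 0.111).

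**Figure D2:**
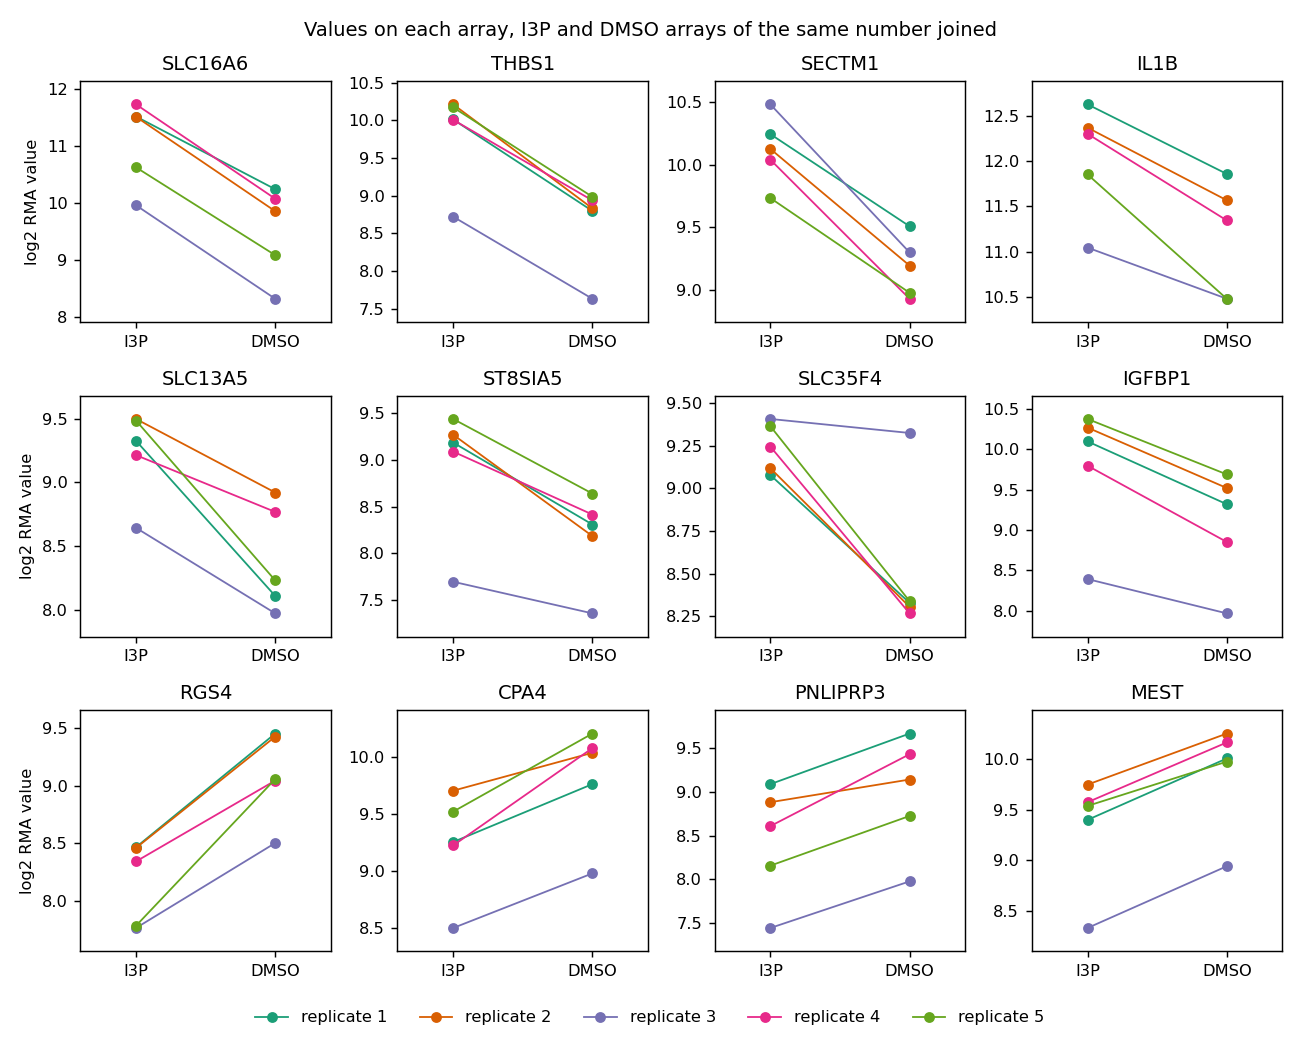
Log2 RMA values on each I3P array and DMSO array for the 8 largest rises outside the AHR target list and the 4 largest falls, with arrays of the same replicate number joined. Each panel has its own vertical axis, which does not start at 0. All lines run down toward DMSO for the rises and up for the falls, and replicate 3 lies apart from the others in several panels.

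Genes of the matrix and of proteolysis outside cells gave 8 rises and 1 fall. THBS1, a matricellular glycoprotein that activates latent TGF-beta, was at 10.01, 10.21, 8.72, 10.01 and 10.17 on the I3P arrays, against 8.80, 8.83, 7.63, 8.94 and 8.98 on the DMSO arrays (log2 difference 1.19, SE 0.094, adjusted p = 4.04e-06 with the block and 0.37 without it). The fold change was 2.28, and without replicate number 3, which was low in both groups, the difference was 1.21. MMP1, the interstitial collagenase, was at 11.05, 10.69, 9.41, 11.16 and 10.06 on the I3P arrays, against 10.34, 10.11, 8.93, 10.38 and 9.34 on the DMSO arrays (log2 difference 0.65, SE 0.061, adjusted p = 1.58e-05 with the block and 0.999 without it). The MMP1 groups overlapped, but the pairs differed by 0.49 to 0.78, a narrow range. LOXL3, a lysyl oxidase that cross-links collagen, averaged 9.87 ± 0.12 with I3P and 9.36 ± 0.18 with DMSO (SD, n = 5 each). Its groups were fully apart (log2 difference 0.51, SE 0.078, adjusted p = 0.00224 with the block and 0.0474 without it).

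Further rises were found for the collagen-binding integrin ITGA11 (0.38), the membrane lectin CHODL (0.37), the chondroitin synthesis factor CHPF (0.34) and the urokinase gene PLAU (0.28). CPA4, a secreted carboxypeptidase, fell, at 9.25, 9.70, 8.50, 9.22 and 9.52 on the I3P arrays, against 9.76, 10.04, 8.98, 10.08 and 10.20 on the DMSO arrays (log2 difference -0.57, SE 0.09, adjusted p = 0.00326 with the block and 0.999 without it). Every pair fell, by 0.33 to 0.85, while the groups overlapped, and the call was lost without number 4 (adjusted p = 0.0597).

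Plasminogen activation held rises of both an activator and an inhibitor. PLAU, which activates plasminogen, and SERPINB2, which inhibits PLAU, both rose among 7 measured genes, whose median was 0.06. Over all probe sets 0.486% rose. PLAU kept its call in 4 of 25 fits, and SERPINB2 in all 25. Among 24 metalloproteases and inhibitors 16 lay above DMSO and MMP1 alone rose, with MMP14 at 0.23 (adjusted p = 0.0691). Of 45 collagen and laminin genes 33 lay above DMSO, with a median of 0.05, and none passed (2 above DMSO at an unadjusted p below 0.05). Over all probe sets 49.9% lay above DMSO, and 5.63% did so at an unadjusted p below 0.05.

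Metabolic genes gave 9 rises and 3 falls. Besides CYP1B1 the largest was ST8SIA5, a sialyltransferase of brain gangliosides, at 9.18, 9.27, 7.70, 9.09 and 9.44 on the I3P arrays, against 8.31, 8.19, 7.36, 8.42 and 8.64 on the DMSO arrays (log2 difference 0.75, SE 0.086, adjusted p = 0.000156 with the block and 0.999 without it). Replicate 3 had the lowest value of both groups and the smallest difference. ALDH1A3, which oxidises retinal to retinoic acid, was at 12.69, 12.67, 12.31, 12.55 and 12.44 on the I3P arrays, against 12.08, 11.82, 12.08, 11.98 and 11.64 on the DMSO arrays (log2 difference 0.61, SE 0.087, adjusted p = 0.0012 with the block and 0.0977 without it). The ALDH1A3 groups did not overlap. PTGS2, the inducible cyclooxygenase that starts prostaglandin synthesis, was at 9.97, 9.88, 8.07, 9.91 and 8.69 on the I3P arrays, against 9.32, 8.95, 7.25, 9.23 and 8.47 on the DMSO arrays (log2 difference 0.66, SE 0.11, adjusted p = 0.00374 with the block and 0.999 without it). Replicate 3 was the lowest in both groups for PTGS2, which lost its call without number 4 (adjusted p = 0.0562). Smaller rises were those of the lipid droplet hydrolase PNPLA3 (0.54), hexokinase HK2 (0.42), the sterol sensor partner INSIG1 (0.41), the lipid regulator TTC39B (0.33) and the mitochondrial sulfide oxidase SQOR (0.32).

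The metabolic falls were those of an imprinted gene, a lipase relative and a kinase subunit. MEST, which is expressed from the paternal allele, was at 9.40, 9.74, 8.34, 9.57 and 9.54 on the I3P arrays, against 10.002, 10.25, 8.94, 10.16 and 9.97 on the DMSO arrays (log2 difference -0.55, SE 0.093, adjusted p = 0.00665 with the block and 0.999 without it). Replicate 3 was low in both groups, and without it the difference was -0.53. The call was lost without number 2 (adjusted p = 0.0673) or 4 (adjusted p = 0.0717). PNLIPRP3, related to pancreatic lipase, was at 9.09, 8.88, 7.44, 8.61 and 8.16 on the I3P arrays, against 9.67, 9.14, 7.98, 9.43 and 8.72 on the DMSO arrays (log2 difference -0.55, SE 0.12, adjusted p = 0.0448 with the block and 0.999 without it). PRKAG2, a regulatory subunit of the energy sensor AMPK, was at 10.38, 10.38, 10.26, 10.48 and 10.51 on the I3P arrays, against 10.70, 10.91, 10.83, 10.68 and 10.72 on the DMSO arrays (log2 difference -0.37, SE 0.065, adjusted p = 0.00919 with the block and 0.0515 without it). All I3P arrays lay below all DMSO arrays for PRKAG2, which lost its call without number 2 (adjusted p = 0.101) or 3 (adjusted p = 0.106), and PNLIPRP3 kept its call in 4 of 25 fits.

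The pathways around these enzymes were mostly flat. Over all probe sets 0.486% rose and 0.115% fell. Of 25 genes of glucose uptake and glycolysis HK2 alone passed, with the glucose transporter SLC2A3 at 0.22 and a list median of 0.02. Of 19 genes of cholesterol synthesis and uptake INSIG1 alone passed, and the synthesis enzymes HMGCS1 and SQLE stood at 0.02 and 0.01. In retinoid metabolism 11 of 14 genes lay above DMSO and ALDH1A3 alone rose, with DHRS3 next at 0.25 (adjusted p = 0.447). In the catabolism of aromatic amino acids none of 15 genes passed, 1 above and 1 below DMSO had an unadjusted p below 0.05, and the 2 largest differences were those of ALDH2 (0.21) and FAH (0.19).

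Cell signalling genes gave 10 rises and 2 falls, among them the largest fall of the comparison. RGS4, which shortens signals of G protein-coupled receptors, was at 8.47, 8.46, 7.77, 8.34 and 7.79 on the I3P arrays, against 9.45, 9.42, 8.50, 9.04 and 9.06 on the DMSO arrays (log2 difference -0.93, SE 0.12, adjusted p = 0.000668 with the block and 0.221 without it). The 2 groups did not overlap, although the highest I3P value and the lowest DMSO value were close. Among 11 measured regulators of this family RGS4 alone passed, while 0.115% of all probe sets fell. FJX1, a secreted homologue of the Drosophila gene four-jointed, was at 10.15, 10.36, 10.55, 10.26 and 10.30 on the I3P arrays, against 10.58, 10.66, 10.93, 10.72 and 10.76 on the DMSO arrays (log2 difference -0.40, SE 0.058, adjusted p = 0.00122 with the block and 0.211 without it). Every pair fell for FJX1 and its groups were apart. FJX1 is also held by the list of YAP and TAZ target genes, where it alone passed of 27 and CCN2 was next at -0.24 (adjusted p = 0.173).

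The signalling rises were led by NYAP1, a neuronal adaptor of phosphoinositide 3-kinase, at 8.79, 8.44, 8.74, 8.48 and 8.79 on the I3P arrays, against 8.32, 8.03, 8.44, 7.72 and 7.80 on the DMSO arrays (log2 difference 0.59, SE 0.097, adjusted p = 0.00514 with the block and 0.253 without it). Its groups overlapped, and the call was lost without number 4 (adjusted p = 0.084) or 5 (adjusted p = 0.0634). Genes of innate immune signalling in this group were LACC1 (0.51), a regulator of macrophage metabolism, and CARD10 (0.41), a scaffold that links receptors to NF-kB. Receptors and their enzymes were the adenosine receptor ADORA2B (0.44), the adenylate cyclase ADCY6 (0.33) and the membrane protein TPRA1 (0.37). The rest were the phosphatidylinositol transfer protein PITPNC1 (0.42), the CDC42 effector CDC42EP2 (0.44), BEX1 (0.40) and RIPOR3 (0.40). ADORA2B, LACC1, CARD10, ADCY6 and RIPOR3 had fully separate groups.

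In trafficking and protein handling 6 genes rose and 1 fell. TBC1D8, which has the fold of proteins that switch off Rab GTPases, was at 8.78, 9.11, 8.39, 9.23 and 8.96 on the I3P arrays, against 8.38, 8.42, 7.75, 8.40 and 8.37 on the DMSO arrays (log2 difference 0.63, SE 0.099, adjusted p = 0.00333 with the block and 0.309 without it). Its I3P array of replicate 3 was level with most DMSO arrays, and the call was lost without number 2 (adjusted p = 0.0543). SCG5, a chaperone of a prohormone convertase, rose by 0.54, and SNX9, a sorting nexin of endocytosis, by 0.41 with groups apart. Rises were also found for the aminopeptidase NPEPPS (0.35), the stress kinase PERK gene EIF2AK3 (0.31) and the endocytic adaptor SH3BP4 (0.24). ATG4C, a protease that processes autophagy proteins, fell, at 8.60, 8.64, 8.62, 8.49 and 8.47 on the I3P arrays, against 8.86, 8.92, 8.93, 8.86 and 8.84 on the DMSO arrays (log2 difference -0.32, SE 0.068, adjusted p = 0.0386 with the block and 0.108 without it). Its 2 groups were tight and did not overlap, though the call held in 8 of 25 fits. Of 42 AMPK and autophagy genes PRKAG2 and ATG4C fell and none rose, while 0.115% of all probe sets fell and 0.486% rose. Of 13 chaperones of the endoplasmic reticulum none passed, and none reached an unadjusted p below 0.05.

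Among transcription factors and their regulators 5 genes rose and 4 fell. PRDM1, the repressor BLIMP1 of lymphocyte differentiation, was at 9.52, 9.75, 9.66, 9.95 and 9.39 on the I3P arrays, against 9.02, 8.93, 9.13, 9.03 and 8.81 on the DMSO arrays (log2 difference 0.67, SE 0.089, adjusted p = 0.000668 with the block and 0.0474 without it). Its groups were fully apart. The atypical E2F repressor E2F7 (0.34) and the bone factor RUNX2 (0.33) rose as well, with TIPARP and AHRR described above. ID3, an inhibitor of basic helix-loop-helix factors, was at 9.63, 10.01, 10.48, 9.93 and 9.99 on the I3P arrays, against 10.08, 10.62, 10.69, 10.37 and 10.57 on the DMSO arrays (log2 difference -0.46, SE 0.06, adjusted p = 0.000668 with the block and 0.961 without it). Its relative ID1 fell by 0.26, MYC, the growth regulator, by 0.31 and MECOM, a zinc finger factor, by 0.30. Only ID3 of these falls kept its call in all 25 fits.

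The pathways of these factors gave few other calls. Of 15 TGF-beta response genes ID3 and ID1 fell, against 0.115% of all probe sets, and none rose, while SMAD7 stood at -0.14 (adjusted p = 0.641). MYC was the only member past the threshold of 14 in its network. Of 29 cell cycle genes 24 lay below DMSO, with a median of -0.06, and none passed limma's test, with 3 below DMSO at an unadjusted p below 0.05. CCNB2 had the largest difference (-0.28, adjusted p = 0.174). Probe sets of ribosomal protein genes and their paralogues lay below DMSO in 38 of 46 cases and respiratory chain genes in 51 of 68, with medians of -0.08 and -0.04 and no member past the threshold. At an unadjusted p below 0.05, 6 ribosomal genes lay below DMSO and 0 above, and 6 respiratory chain genes below and 1 above, against 5.37% below and 5.63% above over all probe sets. Heat shock chaperones lay below DMSO in 8 of 8 cases, with a median of -0.06, 1 at an unadjusted p below 0.05 and none past the threshold. The median over all probe sets was -0.0002.

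**Figure D3:**
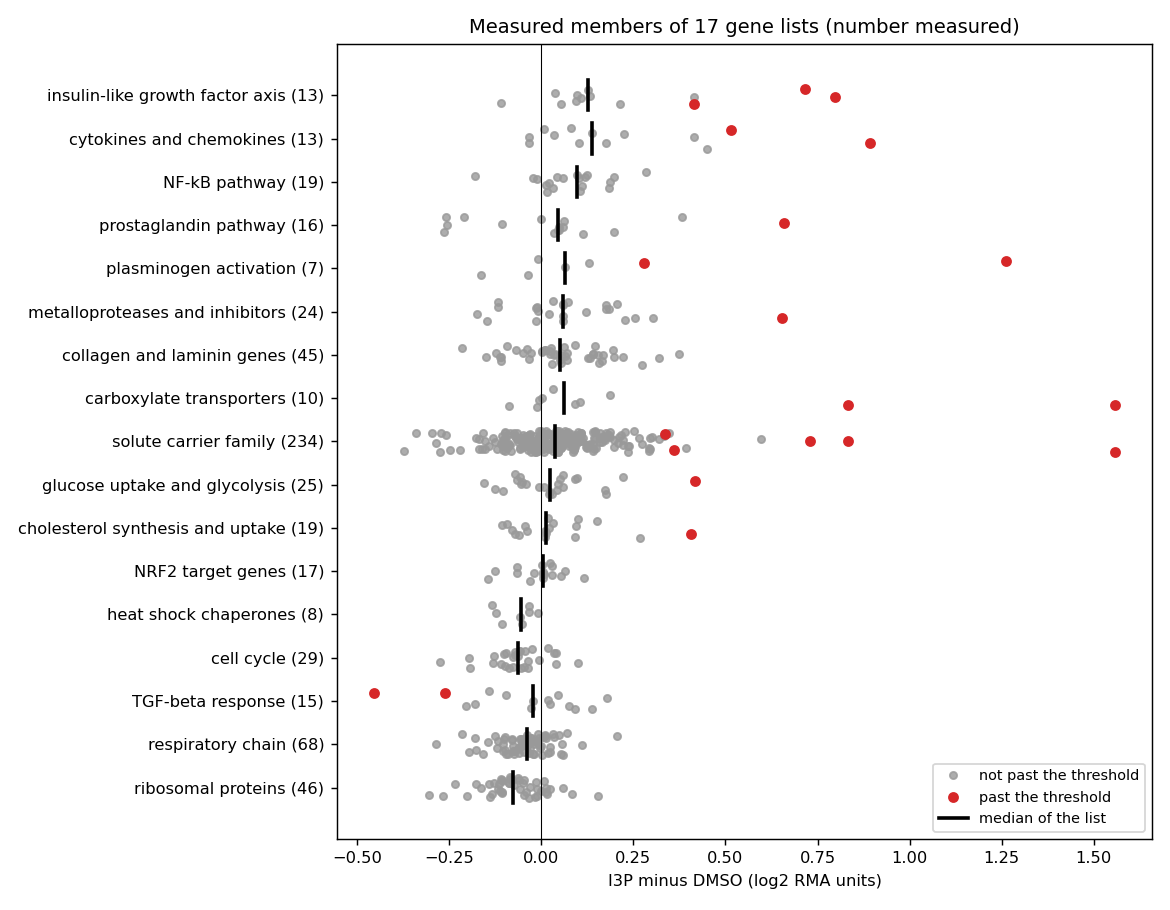
Difference between I3P and DMSO in log2 RMA units for the measured members of 17 gene lists. Grey points did not pass the threshold, red points did, and black bars are list medians. A few members stand far to the right of their list, such as SLC16A6 at 1.56 and SERPINB2 at 1.26, while the medians stay between -0.08 and 0.14.

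Some of the genes lie next to each other in the genome. GREM1 and SCG5 on chromosome 15 had no protein-coding gene between them in the RefSeq order, and neither did IGFBP1 and IGFBP3 on chromosome 7. All 4 rose, GREM1 by 0.38 and SCG5 by 0.54, IGFBP1 by 0.72 and IGFBP3 by 0.41.

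The promoters of the genes that moved most outside the AHR target list are shown with the AHR core, GCGTG on either strand, in capitals. They are the RefSeq windows (GRCh38.p14) that run from 250 bases before the annotated start to 50 after it, written 5′ to 3′ on the gene's strand. The first 5 belong to the largest rises whose window holds the core, so its presence in them was fixed by this choice. RGS4 and CPA4 are the 2 largest falls, taken with or without the core. SLC16A6, ST8SIA5, IGFBP1, MMP1, PNPLA3 and LIF had no window in the promoter set, so their promoters were not read. THBS1 lies at chr15:39580829-39581128 on the plus strand, SECTM1 at chr17:82333717-82334016 on the minus strand, PRDM1 at chr6:106086086-106086385 on the plus strand and ALDH1A3 at chr15:100879581-100879880 on the plus strand. LOXL3 lies at chr2:74549477-74549776 on the minus strand, RGS4 at chr1:163068621-163068920 on the plus strand and CPA4 at chr7:130292911-130293210 on the plus strand.
THBS1: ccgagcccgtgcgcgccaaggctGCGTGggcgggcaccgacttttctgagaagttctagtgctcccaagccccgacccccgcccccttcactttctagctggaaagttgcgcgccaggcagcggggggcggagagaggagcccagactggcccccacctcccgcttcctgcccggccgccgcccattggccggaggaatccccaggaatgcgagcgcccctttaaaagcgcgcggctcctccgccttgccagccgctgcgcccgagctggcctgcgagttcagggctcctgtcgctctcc
SECTM1: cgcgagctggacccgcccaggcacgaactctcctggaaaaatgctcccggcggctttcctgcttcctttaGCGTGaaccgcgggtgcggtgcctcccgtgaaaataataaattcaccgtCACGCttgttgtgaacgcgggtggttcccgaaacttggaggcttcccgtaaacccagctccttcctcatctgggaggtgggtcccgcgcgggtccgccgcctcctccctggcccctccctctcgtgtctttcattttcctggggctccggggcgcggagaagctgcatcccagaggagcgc
PRDM1: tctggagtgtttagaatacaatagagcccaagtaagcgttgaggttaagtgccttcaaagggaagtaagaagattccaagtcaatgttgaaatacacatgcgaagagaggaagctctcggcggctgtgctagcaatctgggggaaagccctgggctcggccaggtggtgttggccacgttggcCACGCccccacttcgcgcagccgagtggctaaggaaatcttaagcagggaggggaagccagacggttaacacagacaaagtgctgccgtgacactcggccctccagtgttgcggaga
ALDH1A3: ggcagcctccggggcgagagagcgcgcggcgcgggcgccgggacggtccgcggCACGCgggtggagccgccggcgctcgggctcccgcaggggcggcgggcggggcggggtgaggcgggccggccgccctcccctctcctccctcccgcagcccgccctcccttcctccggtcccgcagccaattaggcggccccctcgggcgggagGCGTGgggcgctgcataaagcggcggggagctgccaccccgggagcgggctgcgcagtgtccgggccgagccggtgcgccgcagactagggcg
LOXL3: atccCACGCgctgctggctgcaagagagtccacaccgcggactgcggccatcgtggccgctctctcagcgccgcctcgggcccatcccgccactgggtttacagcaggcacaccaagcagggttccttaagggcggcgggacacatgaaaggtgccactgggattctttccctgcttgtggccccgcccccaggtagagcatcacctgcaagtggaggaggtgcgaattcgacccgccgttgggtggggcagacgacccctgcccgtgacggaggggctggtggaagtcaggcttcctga
RGS4: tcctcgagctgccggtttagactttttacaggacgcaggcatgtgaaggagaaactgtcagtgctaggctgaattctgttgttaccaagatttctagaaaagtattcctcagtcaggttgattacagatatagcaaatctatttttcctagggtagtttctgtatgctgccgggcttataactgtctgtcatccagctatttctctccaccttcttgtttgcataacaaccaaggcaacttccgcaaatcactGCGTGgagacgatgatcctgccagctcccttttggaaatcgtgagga
CPA4: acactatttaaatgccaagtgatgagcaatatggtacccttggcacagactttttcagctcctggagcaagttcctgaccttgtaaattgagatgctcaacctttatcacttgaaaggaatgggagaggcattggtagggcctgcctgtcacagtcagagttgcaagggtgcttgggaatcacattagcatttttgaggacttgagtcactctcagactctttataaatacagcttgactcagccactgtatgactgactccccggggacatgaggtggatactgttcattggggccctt
SECTM1 and ALDH1A3 hold the core 2 times, THBS1, PRDM1, LOXL3 and RGS4 1 time each, and CPA4 does not hold these letters. RefSeq lists 2 windows for PRDM1, 2 for LOXL3 and 4 for RGS4, of which only the printed one holds the core. The share of windows with the core was no higher among the genes that rose. The core was in 27 of 68 windows of 47 raised genes (39.7%) and in 5 of 24 windows of 11 lowered genes (20.8%), against 47.9% of 13643 windows of all 9193 tested genes with an entry. The longer TNGCGTG, which contains the core, was in 10.3% of windows of raised genes and 4.17% of those of lowered genes, against 6.83% of all windows. Base composition differed between these sets, with a median of 66.3% G and C in the raised windows, 52.3% in the lowered ones and 64.7% in all, and its part in the shares was not tested. A match to these letters is a description of the sequence and not a site bound by AHR.

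I3P was next set against the other aromatic keto acids at the same 40 µM and 24 h. HPP has a phenyl ring with a hydroxyl group and PP a plain phenyl ring where I3P has an indole. With the replicate block 10 probe sets were higher with I3P than with HPP (0.0884%) and 3 lower (0.0265%). Against PP 76 were higher with I3P (0.672%) and 26 lower (0.23%). Without the block these totals were 0 against HPP and 10 against PP. Leaving out any 1 array or replicate number gave 1 to 10 against HPP and 35 to 102 against PP, so the 13 calls against HPP rest on all 20 arrays. Both comparisons use the same I3P arrays as the comparison with DMSO, so the genes are not found anew in them.

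Several of the largest rises also stood above both other compounds. SLC16A6 averaged 11.07 with I3P, 10.16 with HPP, 9.56 with PP and 9.51 with DMSO (I3P minus HPP 0.91, adjusted p = 0.000233, I3P minus PP 1.52, adjusted p = 1.1e-07). THBS1 averaged 9.82 with I3P, 9.11 with HPP, 8.62 with PP and 8.63 with DMSO (I3P minus HPP 0.71, adjusted p = 0.00546, I3P minus PP 1.21, adjusted p = 2.16e-06). SECTM1 averaged 10.12 with I3P, 9.47 with HPP, 9.09 with PP and 9.18 with DMSO (I3P minus HPP 0.66, adjusted p = 0.0203, I3P minus PP 1.03, adjusted p = 5.13e-05). The order of the 3 compounds was the same for these genes, with HPP between I3P and PP. TIPARP, ST8SIA5, IGFBP1, IGFBP3, SNX9, CHODL and RIMBP2, a synaptic scaffold gene, were the others that passed as higher than with HPP. MYC, RWDD1 and MRPL35, a mitochondrial ribosomal gene, passed as lower than with HPP. CHODL, RIMBP2, RWDD1 and MRPL35 did not pass against PP, and the last 3 did not pass against DMSO either. The calls against HPP are those of the fit with the block and not full separation of the groups. The I3P and HPP arrays overlapped for SLC16A6, THBS1 and SECTM1, and also for TIPARP, ST8SIA5, IGFBP1, IGFBP3, CHODL and MYC.

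Most genes that rose or fell against DMSO did not pass for I3P against HPP. SERPINB2 averaged 11.05 with I3P, 10.68 with HPP, 9.94 with PP and 9.79 with DMSO (I3P minus HPP 0.37, adjusted p = 0.283, 95% interval 0.13 to 0.61). PTGS2 averaged 9.30 with I3P, 9.20 with HPP, 8.83 with PP and 8.64 with DMSO (I3P minus HPP 0.10, adjusted p = 0.817, 95% interval -0.12 to 0.33). EREG averaged 12.28 with I3P, 12.21 with HPP, 11.83 with PP and 11.82 with DMSO (I3P minus HPP 0.08, adjusted p = 0.838, 95% interval -0.11 to 0.26). RGS4, the largest fall, averaged 8.17 with I3P, 8.74 with HPP, 8.97 with PP and 9.10 with DMSO (I3P minus HPP -0.58, adjusted p = 0.0979, 95% interval -0.83 to -0.32). No adjustment for multiple probe sets entered these intervals. Those of PTGS2 and EREG include 0 and those of SERPINB2 and RGS4 do not, and none shows that the compounds act alike.

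Over the genes chosen by I3P against DMSO, the 55 rises had a median of 0.44 with I3P, 0.20 with HPP and 0.03 with PP, each minus DMSO. The 13 falls had medians of -0.40 with I3P, -0.14 with HPP and -0.05 with PP. The 3 values share the DMSO arrays and the genes were picked for their I3P value, so they are given side by side with no test.

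**Figure D4:**
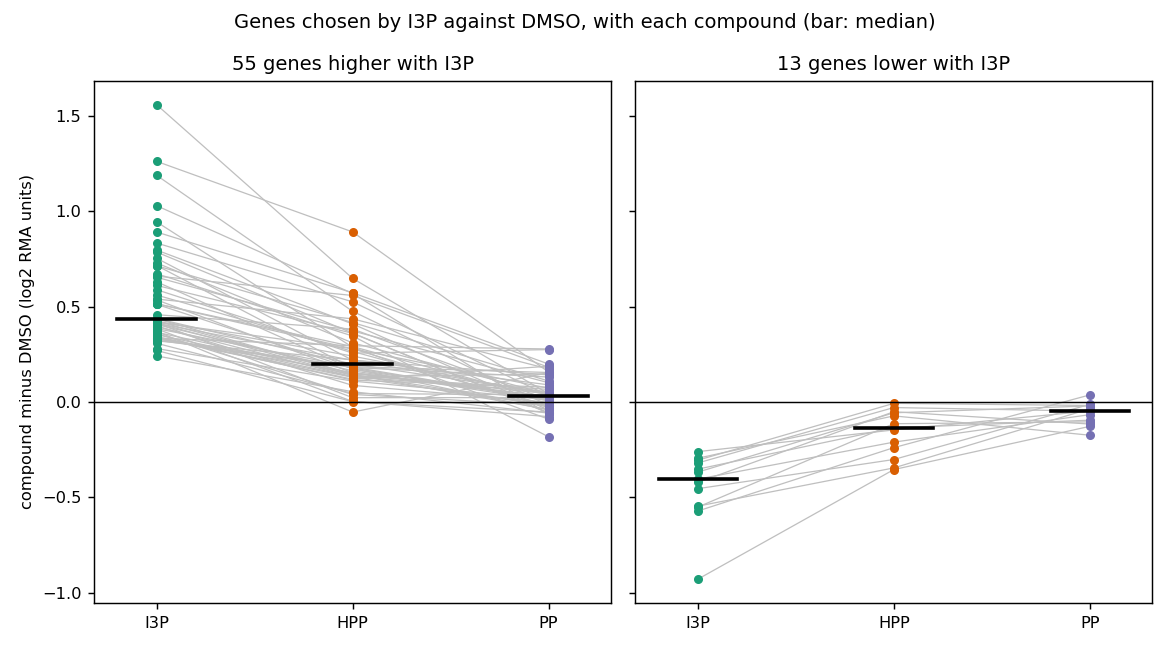
Difference from DMSO in log2 RMA units with I3P, HPP and PP for the 55 genes that rose and the 13 that fell with I3P. Grey lines join a gene's values and black bars are medians, at 0.44, 0.20 and 0.03 on the left and -0.40, -0.14 and -0.05 on the right. The genes were chosen by their I3P difference, which sets them apart in that column.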

How the data were processed

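RNA of U-87MG cells was measured on Affymetrix arrays, 5 each for I3P, HPP, PP and DMSO. The deposited log2 values are RMA values that the authors computed with oligo (background correction, quantile normalisation, summary per probe set), per the submitters' processing notes; their versions were not given in the sources used here. They lay between 5.506 and 14.16, the 20 array medians between 9.23 and 9.279, and no array pair was identical. Precision is limited by the number of arrays, and differences of dim genes may be understated. Of 12770 probe sets, 11316 had 1 symbol in the platform annotation (833 updated through RefSeq, 33 kept without a match), 629 had several and 825 none; the last 2 sets were left out.

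limma 3.58.1 (R 4.3.3; lmFit, eBayes) was fitted to all 20 arrays with 4 groups and the replicate number as a fixed effect (12 residual degrees of freedom), 2-sided, with Benjamini-Hochberg adjustment over 11316 probe sets and a threshold of 0.05. The labels' numbers were taken to pair the arrays, since all 30 same-number pairs of arrays had correlated deviations from their group means (0.163 to 0.714, against a median of -0.157 for other pairs). The fit without the block is given beside the results it changes. Alternatives were a random block, the 10 arrays alone, cyclic loess, equal medians, level filters, other probe set choices, a trended robust prior and leave-outs.

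Every gene past the threshold is named. Values on all arrays are given for the 14 largest rises and 10 largest falls outside the AHR target list, for the AHR targets past the threshold and for AHR. Lists are described by counts, medians and members with the largest differences. Genes and lists were chosen with earlier results of these data known, and function groups were assigned after the calls were seen. Promoter windows are RefSeq's (GRCh38.p14). Python 3.11.15 and matplotlib 3.10.9 made the plots.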

Additional observations from a re-analysis of the deposited data

Results flagged for a closer look

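Groups of 5 arrays were examined for the genes past the threshold and AHR. Of 138 such groups, 18 held an array that stood apart from the other 4 by Dixon's criterion. If the groups were independent, chance would give about 1 in 20, or 6.9. They are the same 10 arrays read for many genes, so 18 against 6.9 does not measure an excess. Of the 18, 14 were of replicate 3. Below the other I3P arrays in replicate 3 were THBS1 at 8.719 (others 10.005 to 10.211), STC2 at 10.543 (others 11.168 to 11.348), ST8SIA5 at 7.697 (others 9.088 to 9.437), KRTAP1-5 at 7.99 (others 9.147 to 9.353), SLC17A5 at 8.131 (others 8.528 to 8.659) and MEST at 8.336 (others 9.398 to 9.745). Above them in replicate 3 were AHRR at 9.545 (others 9.221 to 9.306) and PITPNC1 at 11.009 (others 10.393 to 10.559). Below the other DMSO arrays in replicate 3 were THBS1 at 7.629 (others 8.795 to 8.983), STC2 at 9.992 (others 10.352 to 10.45), TBC1D8 at 7.745 (others 8.368 to 8.416), SLC17A5 at 7.757 (others 8.19 to 8.347) and MEST at 8.943 (others 9.97 to 10.246), and SLC35F4 was above them at 9.324 (others 8.267 to 8.339). Outside replicate 3, EREG was low in replicate 5 with I3P at 11.902 (others 12.315 to 12.465), RIPOR3 in replicate 1 with I3P at 8.925 (others 9.084 to 9.138), CHODL in replicate 1 with I3P at 8.379 (others 8.626 to 8.72) and LOXL3 in replicate 5 with DMSO at 9.037 (others 9.368 to 9.478). For THBS1, STC2, SLC17A5 and MEST the I3P and DMSO arrays of replicate 3 were low together.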

How the results depend on the processing

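The replicate block decided most calls. Against DMSO, 55 genes rose and 13 fell with it, and 9 rose and 0 fell with no replicate block (205 lower at an unadjusted p below 0.05). All 9 were among the 55. A random block gave 33 and 5, the 10 arrays alone 18 and 2, and probe sets above the 25th percentile of level 61 and 20. Leaving out 1 array or number gave 28 to 62 rises and 5 to 19 falls; the falls numbered 8 without the DMSO array 1, the I3P arrays 2, 4 or 5, or numbers 1 or 3, and 5 to 7 without numbers 2, 4 or 5. I3P against HPP differed for 13 with the block, 0 with no block, 1 with a random block, 1 on the 10 arrays, 8 with all probe sets and 23 with the trended robust prior, and for 1 to 10 when an array or number was left out. I3P against PP differed for 102 with the block, 10 with no block and 23 on the 10 arrays, and for 35 to 102 when an array or number was left out, the fewest without number 4. Leaving out I3P array 2 or 5 or PP array 3 gave 66, 53 and 65. The 10-array fits use fewer samples; for the others the cause was not tested. Over the 68 genes and 30 alternatives each, 1464 of 2040 values kept the call, 576 lost it and 0 changed sign. The median of NRF2 target genes was 0.0039 and turned to -0.0010 with equal array medians, and that of ABC transporters and the KATP channel was 0.0090 and turned to -0.0027 with cyclic loess.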
